A study of Mus musculus with 2 samples.

Results

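The genes described here encode 4 granule proteins of neutrophils and monocytes (Mpo, Prtn3, Elane and Ctsg), the integrin chain Itgam and 3 receptor chains for colony-stimulating factors or CSFs (Csf3r, Csf1r and Csf2rb). Binding of HLF (hepatic leukemia factor) was read from a list of 3153 peaks of chromatin immunoprecipitation with sequencing. The 8 genes were taken as a set by name, and a peak belonged to a gene when its centre lay inside the gene or within 100 kb of either end. In all, 10 of the 3153 peaks and 8 of the 21631 coding genes on the 20 chromosomes of the list made up the set.

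HLF is a PAR bZIP transcription factor, which binds DNA as a dimer at a near-palindromic site, and in blood it is known as a factor of stem cells and early progenitors. The starting cells were wild-type mouse LSK cells, early blood progenitors sorted as negative for lineage markers and positive for Sca-1 and c-Kit. They received a pMX retrovirus, either the GFP control or one carrying 3xFLAG-Hlf followed by IRES-GFP. Both arms were then kept for 5 days in OP9 medium with SCF at 50 ng/ml, IL-7 and Flt3L at 10 ng/ml each and IL-3 at 5 ng/ml, and both were precipitated with an anti-FLAG antibody. The tagged factor therefore came from a viral vector and not from the Hlf gene of the cells. Each arm was 1 library of 80000 infected cells, and peaks of the FLAG-HLF arm alone were analysed, so no value has a replicate check and no test between arms was made. The list holds positions of 400-base peaks with no height, read count or significance, so the depth is unknown. The cell type could not be checked against marker expression, because the list holds no expression values. The stage of the cells after the 5 days of culture is therefore unknown here.

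Neutrophil granules are filled in a fixed order as the cell matures, and the azurophil or primary granules, which hold myeloperoxidase and the serine proteases, are made first, in promyelocytes. CSF receptors pass the signals by which G-CSF, M-CSF, GM-CSF and IL-3 sustain myeloid cells. CD11b, the Itgam product, pairs with CD18, the Itgb2 product, to form a receptor that myeloid cells use for adhesion and for uptake of complement-coated particles.

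Of the 8 genes, 6 (75%) had a peak inside or within 100 kb, where 36.7% of all coding genes had one. These were Mpo with 5 peaks, Itgam with 2, and Prtn3, Elane, Csf3r and Csf2rb with 1 each. Prtn3 and Elane shared the same peak, so 11 gene and peak pairs came from 10 peaks. Closer in, 5 of the 8 genes (62.5%) had a peak inside or within 10 kb, against 11.5% of coding genes. Those 5 were Itgam, Prtn3, Mpo, Csf3r and Elane, in order of distance. Ctsg and Csf1r had 0 peaks within 100 kb. The median distance from a gene of the set to its nearest peak was 6.97 kb, and over all coding genes it was 180.6 kb. These counts describe 1 list, and chromatin accessibility and expression were not matched. The 8 genes were chosen with earlier results of these data known, so the contrasts with all coding genes are not free of that choice.

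**Figure D1:**
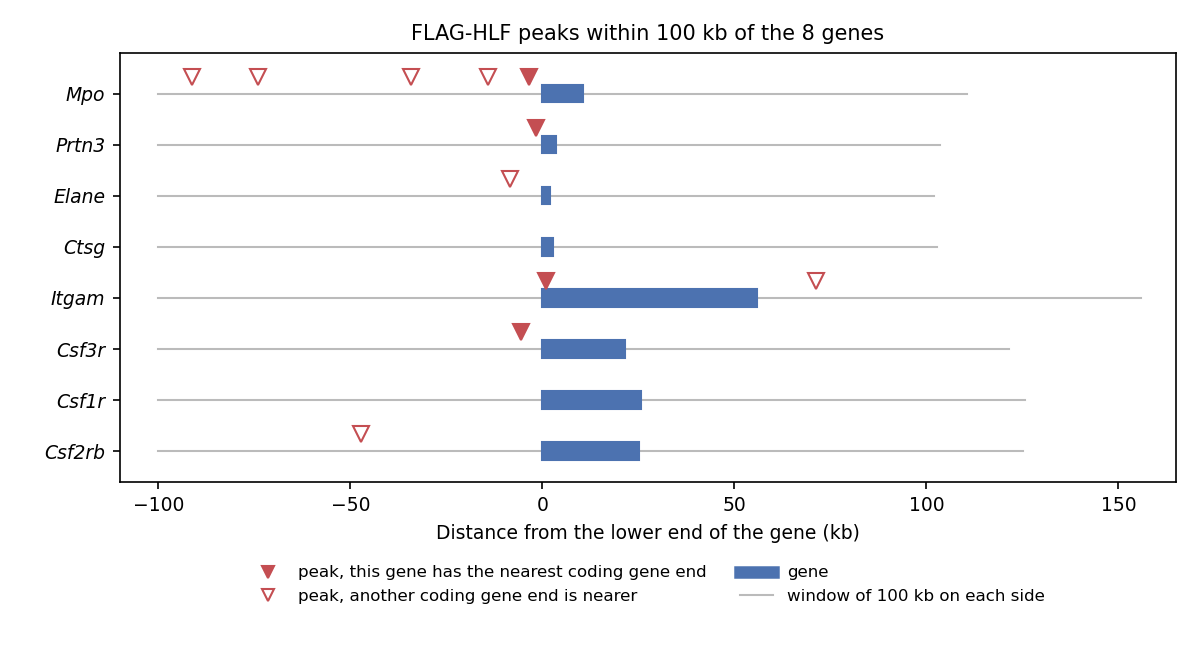
Peaks around each of the 8 genes, drawn in genome orientation from the lower end of each gene (kb, x axis), with 1 gene per row; blue bars are genes, grey lines the window of 100 kb on each side, filled triangles peaks whose nearest coding gene end belongs to the gene, and open triangles peaks nearer to another coding gene. Mpo has 5 peaks, all on its lower side, and Ctsg and Csf1r have 0.

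The set was also read at other limits. With a limit of 20 kb, 5 of the 8 genes had a peak against 15.2% of coding genes, and with 50 kb, 6 against 24.5%. At 200 kb, 7 had a peak against 52.4%. Inside the gene bounds only Itgam, 1 of the 8, had a peak, against 6.91% of coding genes. Short genes offer less room for a peak. Among the 4850 coding genes under 5 kb long, 4.37% had a peak inside or within 10 kb, and Prtn3 (3.51 kb) and Elane (1.905 kb) did while Ctsg (2.69 kb) did not. Gene density was uneven as well. The 8 windows held 4 to 15 other coding genes, with a median of 8 against 4 for coding genes at large.

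**Figure D2:**
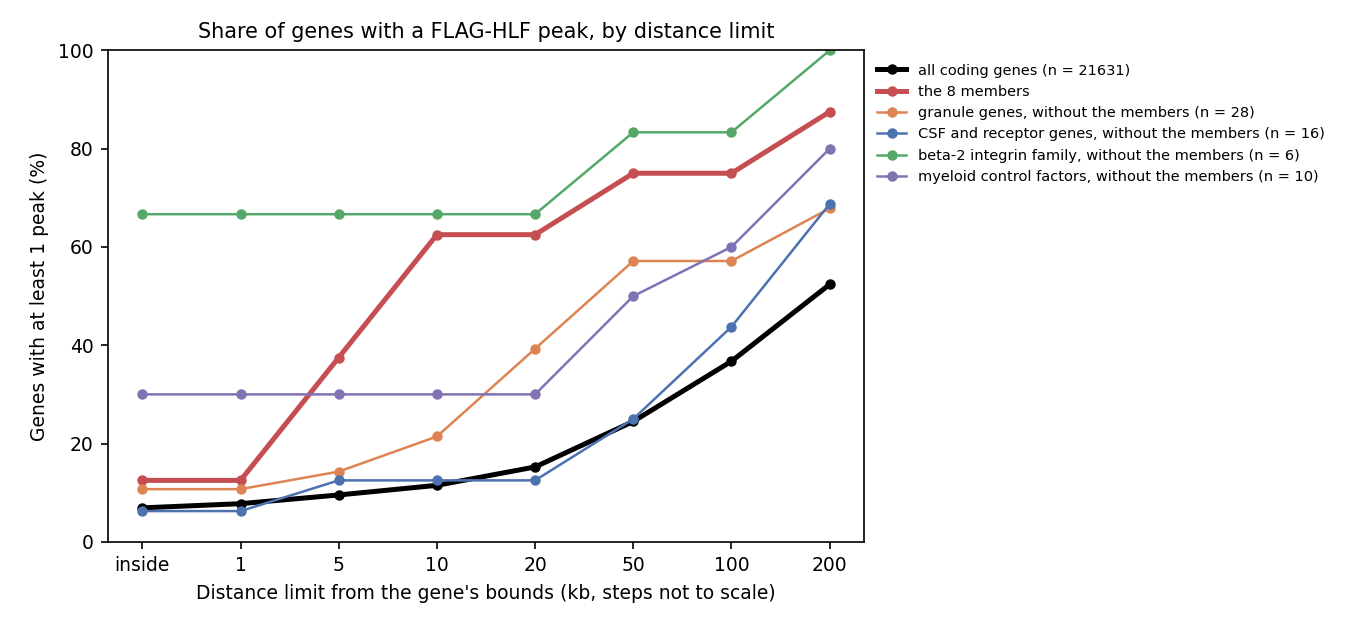
Share of genes with at least 1 peak (percent, y axis) by the distance allowed from the gene's bounds (kb, x axis, steps not to scale), for all 21631 coding genes, the 8 genes of the set and 4 lists without genes of the set. The set goes from 12.5% inside the gene to 62.5% at 10 kb, while all coding genes go from 6.91% to 11.5%.

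The granule genes come first. Mpo encodes myeloperoxidase, which makes hypochlorous acid from hydrogen peroxide in the phagosome. It lies on the plus strand of chromosome 11 (87793784 to 87804412, mm10) and had 5 peaks, all before its start. Their centres were 3.56, 14.1, 34.1, 74.1 and 91.4 kb upstream, and the steps between neighbours were 10.6, 19.97, 39.97 and 17.3 kb. The row spanned 87.8 kb. The closest peak (chr11:87790027-87790426) was the only one with Mpo as its nearest coding gene. It lay in no coding gene but inside the lncRNA gene Gm34064, which runs on the minus strand and covers the first 1.43 kb of Mpo.

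The next peaks fell inside other genes. The peaks at 14.1 kb (chr11:87779447-87779846) and 34.1 kb (chr11:87759481-87759880) lay inside Tspoap1, 6.28 and 1.49 kb from its ends. The peaks at 74.1 kb (chr11:87719507-87719906) and 91.4 kb (chr11:87702213-87702612) lay inside Rnf43, a gene for a RING-type ubiquitin ligase of Wnt signalling, with Supt4a and Tspoap1 between them and Mpo. The peak at 91.4 kb also lay inside the lncRNA gene 1110028F11Rik, 2.89 kb from its end. Windows with 5 or more peaks were rare, found at 59 of the coding genes (0.273%). Mpo and its neighbours Rnf43, Supt4a and Tspoap1 were 4 of these 59, and their windows held the same 5 peaks. Lpo was another, with 4 of these peaks and 1 beyond its upper end, the peak 116.8 kb from Mpo. Lpo and Epx, the peroxidase genes on the other side of Mpo, held 0 peaks, with the nearest at 16.2 and 45.6 kb. The peak at 91.4 kb was the farthest that the limit of 100 kb let in, and the nearest one left out was also at Mpo, at 116.8 kb.

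**Figure D3:**
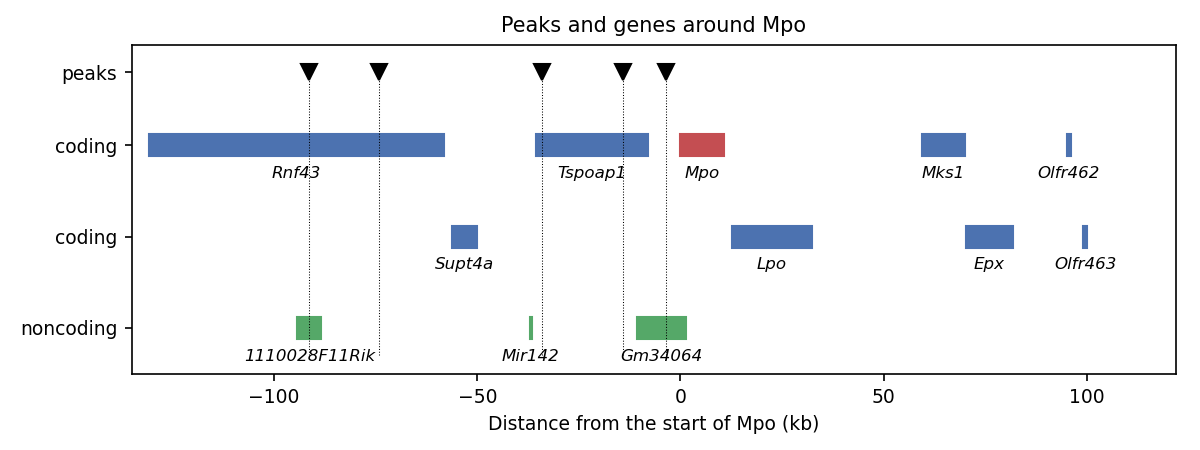
Peaks (triangles, dotted lines) and genes around Mpo, by distance from the Mpo start (kb, x axis); rows part overlapping genes, with Mpo in red, other coding genes in blue and selected noncoding genes in green. All 5 peaks lie to the left of Mpo, 2 of them in Rnf43, 2 in Tspoap1 and 1 in Gm34064. The leftmost peak lies in 1110028F11Rik as well as in Rnf43.

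A miRNA gene lay within this row of peaks. Mir142, a miRNA gene active across blood lineages, is on the plus strand (chr11:87756864-87756927), 1.27 kb below Tspoap1, and the centre of the peak 34.1 kb from Mpo was 2.75 kb from it. Mir142b, a miRNA gene that overlaps Mir142, was 2.725 kb from the same peak. A peak within 3 kb was found at 15 of the 1005 miRNA hairpins in the RefSeq table (1.49%), and within 10 kb at 43 (4.28%). The mature arms of Mir142 are shown because the peak was nearer to it than to Mpo. They are from RefSeq (GRCm38.p6), with the seed, bases 2 to 8, in capitals. The arms have different seeds.
mmu-miR-142a-5p: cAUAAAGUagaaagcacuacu
mmu-miR-142a-3p: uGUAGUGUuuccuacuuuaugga

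Prtn3 and Elane encode proteinase 3 and neutrophil elastase, serine proteases of the azurophil granule, and stand 3.14 kb apart on the plus strand of chromosome 10. Prtn3 runs from 79879667 to 79883174 and Elane from 79886312 to 79888216. A single peak (chr10:79877753-79878152) was centred 1.72 kb before the start of Prtn3 and 8.36 kb before that of Elane, with Prtn3 in between. It lay in no gene of the RefSeq table. The gap that held it, 4.71 kb wide, separates Prtn3 from Plppr3, which runs the other way, so the peak stood between genes that point away from each other. Its centre was 2.99 kb from Plppr3. The nearest other peak in the genome was 139.7 kb away, against a median of 103.3 kb over all peaks. The window of Prtn3 held 15 other coding genes, and 2.79% of coding genes had more. Cfd, the gene for complement factor D next to Elane, was 12.9 kb from this peak.

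Ctsg encodes cathepsin G, the third azurophil protease, and lies apart from the other genes on the minus strand of chromosome 14 (56099885 to 56102574). Its nearest peak was 186.2 kb away on the 3′ side. That was close to the coding gene median, since 50.7% of coding genes had a peak at least as close. Its coding neighbours within 100 kb were 5 mast cell protease genes (Mcpt1, Mcpt2, Mcpt4, Mcpt8 and Mcpt9) and 4 granzyme genes (Gzmd, Gzme, Gzmg and Gzmn). All 9 lie inside the window of Ctsg, which had no peak, so their 0 peaks follow by construction.

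Itgam encodes CD11b, the alpha chain of the integrin Mac-1. It lies on the plus strand of chromosome 7 (128062640 to 128118491) and had 1 peak inside, centred 0.932 kb after its start (chr7:128063373-128063772). Whether that position is exonic or intronic was not read, because the table gives no exons. The other peak in its window was 15.3 kb past its upper end (chr7:128133605-128134004), inside Itgax, the gene for CD11c, 4.25 kb after the Itgax start. Itgam and Itgax are separated by 11.04 kb. After these the nearest peak to Itgam was 553.7 kb away.

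Csf3r encodes the G-CSF receptor, which drives neutrophil production, and lies on chromosome 4 (126023441 to 126044975). Its only peak (chr4:126017658-126018057) was 5.58 kb outside the lower end and 6.80 kb before the start given in the RefSeq promoter table, which is 1.22 kb inside the gene's bounds. Csf3r was the nearest coding gene. As at Mpo, the peak lay in a lncRNA gene on the minus strand, here Gm32908, whose upper end was 5 bases from that Csf3r start. The share of all peaks in lncRNA genes is not given here, so this likeness is a description only. No other peak lay within 717.1 kb of the Csf3r peak, and 9.39% of all peaks were as isolated or more so.

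Csf2rb encodes the common beta chain shared by the receptors for GM-CSF, IL-3 and IL-5, on chromosome 15 (78325800 to 78351001). Its only peak (chr15:78278349-78278748) was 47.3 kb from its lower end, on the far side of Csf2rb2, its paralog in mice, which encodes an IL-3-specific beta chain. That peak was 3.96 kb from Csf2rb2, on the 3′ side of the paralog, and 15.97 kb from Ncf4, a subunit gene of the phagocyte NADPH oxidase. Csf2rb2 and Csf2rb are 20.1 kb apart, and 0 peaks lay between them. A peak as close as that of Csf2rb was found at 23.8% of coding genes.

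The 10 peaks had mixed nearest genes. The nearest coding gene belonged to the set for 4 peaks, 1 each at Mpo, Prtn3, Itgam and Csf3r, and was another gene for 6. Being the nearest coding gene of a peak held for 4 of the 8 genes, against 10.9% of coding genes. The centre of 1 peak lay inside a gene of the set, 5 lay inside another coding gene and 4 in none. The same shares over all 3153 peaks are not given here, so these places are a description only. Among the 5 genes with a peak inside or within 10 kb, the nearest peak was on the 5′ side of the gene at Mpo, Prtn3, Elane and Csf3r, and at Itgam it was inside, after the start. Among the 1992 coding genes with a known strand and a peak within 10 kb, the nearest peak was on the 5′ side in 23.2% and inside in 59.8%. That background was not matched for gene length, and short genes hold fewer peaks inside. Among coding genes under 5 kb, 0.577% had a peak inside and 4.37% inside or within 10 kb. From 5 to 20 kb these shares were 3.32% and 9.12%, and from 20 to 60 kb 7.89% and 12.7%. Since Prtn3 and Elane share a peak, the 5 genes had 4 distinct nearest peaks, 3 of them on the 5′ side. By place in the file, whose order is not explained, the 10 peaks ran from line 183 to line 3069, with 4 in the first 1576 lines and 6 in the rest.

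No peak reached the promoter windows themselves, and few promoter windows of any gene were reached. RefSeq promoter windows, 250 bases before to 50 after the start, were found for 6 of the 8 genes, and 0 of these 6 were touched by a peak, as against 0.691% of the 32851 windows in the table. The windows of Itgam, Prtn3, Mpo and Csf3r are shown because each of these genes was the nearest coding gene of a peak, with the peak edge 684, 1265, 3108 and 6352 bases from the window, and that of Ctsg because it had no peak nearby. The Elane window, 7910 bases from the peak shared with Prtn3, is not shown. All are 5′ to 3′ on the strand of the gene (GRCm38.p6, RefSeq), at chr7:128062390-128062689 (plus), chr10:79879417-79879716 (plus), chr11:87793534-87793833 (plus), chr4:126024409-126024708 (plus) and chr14:56102525-56102824 (minus). Capitals mark AGGAAG, a core bound by ETS factors such as PU.1, or its complement CTTCCT.
Itgam: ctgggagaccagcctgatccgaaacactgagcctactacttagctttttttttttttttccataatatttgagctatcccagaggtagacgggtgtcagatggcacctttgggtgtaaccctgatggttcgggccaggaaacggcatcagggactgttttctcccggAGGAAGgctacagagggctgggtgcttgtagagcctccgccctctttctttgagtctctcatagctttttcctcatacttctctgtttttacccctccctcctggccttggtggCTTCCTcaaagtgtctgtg
Prtn3: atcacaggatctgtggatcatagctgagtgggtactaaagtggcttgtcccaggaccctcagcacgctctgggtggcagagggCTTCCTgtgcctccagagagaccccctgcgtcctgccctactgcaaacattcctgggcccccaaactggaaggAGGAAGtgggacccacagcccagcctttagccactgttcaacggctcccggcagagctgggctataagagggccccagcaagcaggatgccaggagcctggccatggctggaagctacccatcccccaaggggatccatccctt
Mpo: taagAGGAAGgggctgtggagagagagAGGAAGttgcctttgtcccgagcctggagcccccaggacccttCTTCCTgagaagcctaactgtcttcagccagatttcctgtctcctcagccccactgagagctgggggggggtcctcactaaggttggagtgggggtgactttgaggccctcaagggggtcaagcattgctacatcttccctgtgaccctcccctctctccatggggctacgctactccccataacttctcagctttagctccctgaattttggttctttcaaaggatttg
Csf3r: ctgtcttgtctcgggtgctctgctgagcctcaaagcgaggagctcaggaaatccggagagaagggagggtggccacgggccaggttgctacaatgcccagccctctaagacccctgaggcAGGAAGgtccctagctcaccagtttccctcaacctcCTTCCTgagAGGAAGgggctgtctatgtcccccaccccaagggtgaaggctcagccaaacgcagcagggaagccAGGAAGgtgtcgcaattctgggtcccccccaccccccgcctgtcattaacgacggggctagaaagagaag
Ctsg: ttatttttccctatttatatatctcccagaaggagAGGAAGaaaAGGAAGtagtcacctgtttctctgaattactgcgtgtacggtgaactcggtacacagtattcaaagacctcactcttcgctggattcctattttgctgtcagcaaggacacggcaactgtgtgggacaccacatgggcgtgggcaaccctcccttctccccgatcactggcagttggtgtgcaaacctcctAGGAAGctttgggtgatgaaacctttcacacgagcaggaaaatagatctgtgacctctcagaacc

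The ETS letters were in each window. AGGAAG, read on both strands, was in 6 of the 6 windows, against 35.4% of all windows. Csf3r had 4 matches, a number reached by 0.432% of windows. Mpo and Ctsg had 3 each, a number reached by 1.90% of windows. Itgam and Prtn3 had 2 each, reached by 8.62%, and Elane had 1. The MYB letters AACTG were in 4 of the 6 (44.8% of all windows), and the RUNX letters TGTGGT in 1, Ctsg (16.8%).

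The letters of the PAR bZIP and C/EBP sites were absent from these windows. The PAR bZIP letters TTACGTAA and TTATGTAA were in 0 of the 6, against 1.06% of all windows, and the looser C/EBP letters TTGCNNAA in 0 against 10.8%. With shares this low, 0 of only 6 windows is near the background and does not set these genes apart. With 1 mismatch to the PAR bZIP letters Itgam had a match, against 17.4% of windows. Windows that a peak did touch, 227 in the table, held the PAR bZIP letters in 6.61%, TTGCNNAA in 30.4% and AGGAAG in 38.3%. GATA letters (AGATAA) and AP-1 letters (TGANTCA) were also in 0 of the 6, against 11.2% and 7.81%, and E-box letters (CANNTG) were in 2, Itgam and Ctsg, against 72.3%. The broad form TTNNNNAA, which contains the PAR bZIP and C/EBP letters, was in 1, Itgam, against 61.5%. A match is a description of letters only, and the sequence under the 10 peaks was not used here.

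Related genes were then read from 4 lists, also chosen with earlier results of these data known. Of 28 further granule genes, 16 (57.1%) had a peak within 100 kb and 6 (21.4%) within 10 kb, against 36.7% and 11.5% of coding genes, with a median nearest distance of 35.4 kb. The 16 genes had 15 distinct nearest peaks. For Lpo and Ncf4 the nearest peak, at 16.2 and 15.97 kb, was a peak of the set already described at Mpo and Csf2rb. Peaks lay inside Ltf, the gene for the secondary granule protein lactoferrin (chr9:111037544-111037943), Cyba, a subunit of the NADPH oxidase (chr8:122429961-122430360, 2.78 kb after the start), and Srgn, the granule proteoglycan serglycin (chr10:62509124-62509523). Cst7, which encodes cystatin F, an inhibitor of granule proteases, had a peak 3.19 kb before its start. Lyz1 and Lyz2, the lysozyme genes, shared 1 peak at 9.075 and 19.7 kb. Mmp9, the gelatinase gene, had its nearest peak at 12.8 kb, and Lcn2, the gene for the secondary granule protein lipocalin 2, at 31.8 kb. Genes of the 28 with 0 peaks within 100 kb included Camp, Ngp, S100a8, S100a9, Mmp8, Cybb, Ncf1, Gzmb, Mcpt8, Ear2 and Cd63. Among these the nearest peak was closest at S100a8, 143.5 kb away, and farthest at Cybb, 4168 kb away on the X chromosome.

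The CSF and receptor list was near the background. Of 16 further genes, 7 (43.8%) had a peak within 100 kb and 2 (12.5%) within 10 kb, beside the same 36.7% and 11.5%. Those within 10 kb were Csf2rb2, described above, and Flt3, the receptor for Flt3 ligand, with 2 peaks inside, 7.64 and 11.4 kb after its start. The alpha chains that pair with the common beta chain had 0 peaks within 100 kb. The distances were 132.8 kb for Csf2ra, 257.8 kb for Il3ra and 1498 kb for Il5ra. Csf1, the gene for the ligand of the M-CSF receptor, had its nearest at 46.7 kb, and Csf3, the G-CSF gene, at 51.5 kb. Kit, the receptor for SCF, was at 74.3 kb.

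The Itgam relatives come next. Without Itgam, 4 of 6 genes (66.7%) had a peak inside. Among these 4 is Itgax, whose peak was already counted in the window of Itgam. With Itgam, of the 7 genes of the beta-2 integrin family and its ligands, 5 (71.4%) had a peak inside, against the 6.91% of coding genes given above. The median length of the 7 genes was 31.6 kb, and of the 5817 coding genes from 20 to 60 kb long 7.89% had a peak inside. Itgb2, the gene for CD18, the beta chain of Mac-1, had 2 inside, 0.751 and 1.70 kb from its lower end (chr10:77530881-77531280 and chr10:77531833-77532232). Itgal, the gene for CD11a, had 1 across its lower end, with the centre 0.109 kb inside (chr7:127296049-127296448). Icam2, a ligand of CD11a, had 1 at 0.678 kb from its upper end (chr11:106387262-106387661). Counting peaks inside and at most 1 kb from a gene end, 4 of the 7 genes (57.1%) had one, namely Itgb2, Itgal, Icam2 and Itgam itself. Of coding genes 171 (0.791%) did, among them 1 of the 8 genes of the set, Itgam. This count at 1 kb was added after the peak positions were seen, so its contrast with the background is a description only. Itgad, the gene for CD11d, had 0 inside and its nearest at 40.1 kb. Icam1, another ligand, was at 100.2 kb, just past the limit. The chains of Mac-1, Itgam and Itgb2, thus each held a peak close to an end.

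**Figure D4:**
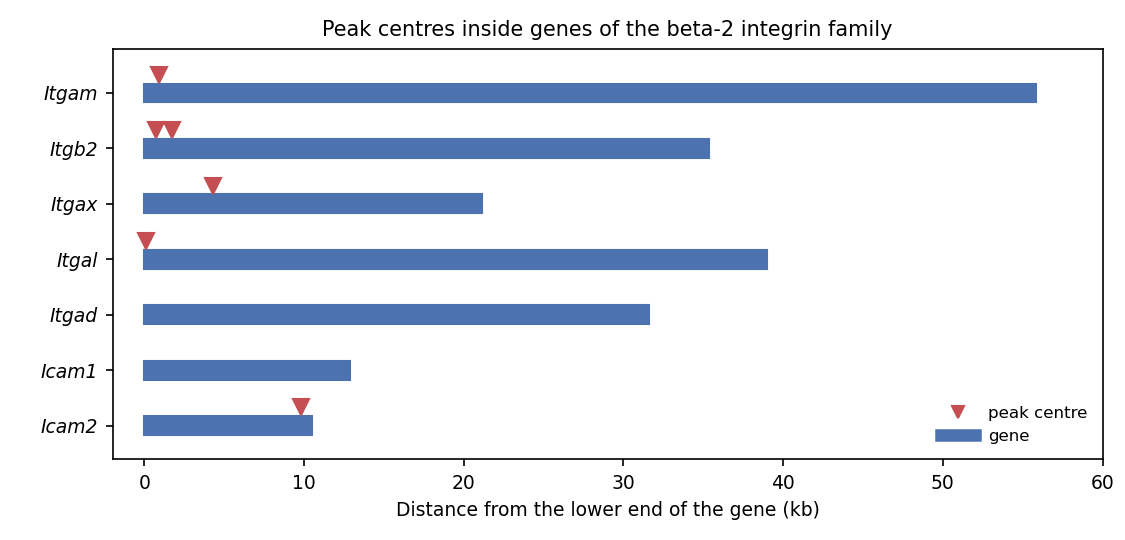
Peak centres (triangles) inside the 7 genes of the beta-2 integrin family and its ligands, drawn in genome orientation from the lower end of each gene (kb, x axis), 1 gene per row, with blue bars for the genes. In Itgam, Itgb2, Itgal and Icam2 a peak lies at most 1 kb from an end, and Itgad and Icam1 hold 0.

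Factors known to control myeloid genes were listed for background. Of 10 such genes, 3 (30%) had a peak inside and 6 (60%) had one within 100 kb, where 6.91% and 36.7% of coding genes did. Spi1, the PU.1 gene, had 1 inside (chr2:91096482-91096881), Myb had 1 inside, 6.003 kb after its start, and Runx1 had 2 inside its 224.6 kb. Cebpb was 39.5 kb from a peak, Cebpe 42.5 kb and Cebpd 97.1 kb. Cebpa, Gfi1, Irf8 and Klf4 had 0 within 100 kb.

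Csf1r encodes the M-CSF receptor, which macrophages need to grow and survive, and lies on chromosome 18 (61105572 to 61131139). It was the gene of the set farthest from a peak, at 313.4 kb, and 63.2% of coding genes had one at least as close. Its 8 coding neighbours within 100 kb, among them Pdgfrb, a related receptor kinase gene 20.5 kb away, held 0 peaks. For neighbours wholly inside that window, such as Pdgfrb, this follows by construction, since the window had no peak. Among the 3 CSF receptor genes of the set, a peak was thus near Csf3r, beyond the paralog at Csf2rb and not within 100 kb at Csf1r.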

How the data were processed

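Anti-FLAG ChIP-seq was done on 1 library per arm, from LSK cells infected with FLAG-HLF or GFP virus and then cultured for 5 days. The deposited list gives the start and end of 3153 peaks in bases (BED, 3 columns, 400 bases wide) and no score. Bowtie2, bedtools, MACS2 and mm10 (GRCm38) are named, without role or version, per the submitters' processing notes. The peak threshold and the control are items not given in the sources used here.

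Peak centres (start + 200) were set against gene bounds in the RefSeq table of GRCm38.p6, in which all 8 genes were found. Strand came from RefSeq promoter windows, present for 6. Python 3.11.15, numpy 2.4.6, pandas 2.3.3 and matplotlib 3.10.9 were used, and the distance code was tested on simulated data. Values are counts beside the share of 21631 coding genes, with no test, since 1 list has no replicates. The genes and lists were chosen with earlier results of these data known. The rule for naming took all 8 genes with every peak within 100 kb, the genes that hold, adjoin or separate them, and up to 20 list genes with a peak within 5 kb. Other list genes were named after their values were seen. A gene of the granule list is not reported here. The share of coding genes with a peak at most 1 kb from an end, the spacing of peaks, the length classes and the miRNA counts were added after the data were seen. Coordinates count from 1.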

Additional observations from a re-analysis of the deposited data

How the results depend on the processing

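The number of genes with a peak was 4 to 7 of 8 under 9 of the 10 alternatives, among them limits of 10 to 200 kb, any base of the peak, and either portion of the lines. Counting only peaks inside a gene left 1 gene and 1 peak. The number of distinct peaks, 10 at 100 kb, was 4 within 10 kb, 6 within 20 kb, 4 when each peak went to the nearest coding gene end, 4 when noncoding genes entered that rule, 4 in the first 1576 lines and 6 in the later ones. A smaller limit or fewer lines leaves fewer peaks by construction. The share of coding genes with a peak moved too, from 36.7% to 11.5% at 10 kb and 10.9% by nearest coding gene end. It was 7.36% when noncoding genes entered that rule, 22.3% in the first 1576 lines, 21.9% in the later ones and 52.4% at 200 kb. No paired analysis was possible because each arm was 1 library. A stricter peak threshold was not run, since the list has no score, and read depth, which limits what a missing peak can show, is unknown.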
